A study of Mus musculus with 6 samples.

Results

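The miR-130 and miR-301 family was followed in N2A (Neuro2A) cells, a line from a mouse neuroblastoma that the labels call a neuroblast line. The family was taken as every entry named mmu-miR-130a, mmu-miR-130b, mmu-miR-301a or mmu-miR-301b, mmu standing for mouse, in either arm and any variant, which gave 8 entries of 1080 in each library, one for each arm of the 4 miRNAs. All 8 had a mean above the minimum used for testing. The 6 libraries are 3 controls from cells transfected with si-NC and 3 from cells transfected with si-circCpsf6, an siRNA against the circular RNA circCpsf6, called the silenced libraries here. Both siRNAs were used at a final 100 nM with a lipid reagent. The study asks how miRNA levels differ between these groups. How far circCpsf6 itself was lowered was not analysed here, and no untreated cells were included. Values are the authors' normalized reads. They are read numbers per mature miRNA, and since the mature forms have nearly the same length they were compared between miRNAs without a correction for length.

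A miRNA hairpin is cut into a duplex with a 5p and a 3p arm, and the arm that is loaded into an Argonaute protein pairs with target messages mainly through its seed, bases 2 to 8. The 3p arms of miR-130a, miR-130b, miR-301a and miR-301b carry one seed and are regarded as the guide strands of the family, which is known for repressing Pparg, a regulator of fat cell formation.

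The mature sequences are shown because the printed 3p arms share their seed, while the printed 5p arms do not all have the same seed. They are from RefSeq (GRCm38.p6), written 5′ to 3′ with the seed in capitals, for the 7 of 8 entries that matched by name.
miR-130a-3p: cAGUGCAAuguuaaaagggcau
miR-130b-3p: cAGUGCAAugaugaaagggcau
miR-301a-3p: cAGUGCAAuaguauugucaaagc
miR-130a-5p: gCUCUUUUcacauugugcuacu
miR-130b-5p: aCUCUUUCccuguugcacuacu
miR-301a-5p: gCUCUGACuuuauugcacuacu
miR-301b-5p: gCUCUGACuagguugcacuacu
The 3 printed 3p arms had the same seed, AGUGCAA, and diverged from base 10 or 11 onward. miR-130a-3p and miR-130b-3p differed at 2 of 22 bases, and miR-301a-3p differed from them at 10 and 11 of the 22 bases compared. Among the 5p arms, miR-301a-5p and miR-301b-5p shared a seed and differed at 3 of 22 bases, whereas miR-130a-5p and miR-130b-5p differed at 7. miR-130a-3p and miR-130b-3p were the closest pair among the printed 3p arms, and their reads could be split between them. miR-301b-3p was not compared for lack of a matched sequence. The 3p side of the Mir301b hairpin holds a stretch that closely matches miR-301a-3p, so reads of miR-301a-3p and miR-301b-3p could be split as well. How the authors assigned reads is not known here.

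The hairpins of miR-130a and miR-130b show where the arms lie, with the mature arms in capitals and the 5p arm first.
Mir130a: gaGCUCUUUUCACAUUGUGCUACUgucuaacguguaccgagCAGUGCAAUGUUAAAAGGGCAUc
Mir130b: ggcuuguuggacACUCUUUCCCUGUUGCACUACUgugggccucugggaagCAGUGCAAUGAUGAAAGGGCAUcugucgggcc
On GRCm38, which is not the authors' build, Mir130a lies at chr2:84741115-84741178 on the minus strand, outside any host gene, with the coding gene Gm19426 the nearest at 991 bases. Mir130b (chr16:17124061-17124142) and Mir301b (chr16:17124400-17124496) lie 257 bases apart on the minus strand, both in an intron of 2610318N02Rik on the same strand. Mir301, the hairpin of miR-301a, lies at chr11:87113004-87113089 on the plus strand in an intron of Ska2, a gene of the spindle and kinetochore complex. None of the 4 hairpins overlapped an exon of another gene in GENCODE M21.

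Library totals ran from 2570449 to 3268351 normalized reads, and normalized totals carry no depth. The neuronal markers miR-7a-5p, miR-218-5p, miR-124-3p and miR-9-5p had means over all libraries of 218283, 20672, 393 and 148. Of 9 miRNAs listed for other cell types, 7 had an entry. The liver miRNA miR-122-5p (mean 0.833) and the red cell miRNA miR-451a (3.50) were near 0. The muscle miRNAs miR-1a-3p and miR-133a-3p had means of 62.8 and 11.7. The endothelial miR-126a-3p had a mean of 3551, above those of miR-124-3p and miR-9-5p. miR-143-3p and miR-145a-5p, known from smooth muscle, stood at 73415 and 11099. The neuronal list summed to 126352 to 254576 in the controls and to 226221 to 378910 in the silenced libraries. Most of that sum was miR-7a-5p, with group means of 169637 and 266929, and miR-124-3p (319 and 467) also had the higher mean in the silenced libraries. By contrast, miR-218-5p (22617 and 18727) and miR-9-5p (169 and 128) had the lower mean there. The summed value of the other-cell list ran from 71852 to 109167 in the controls and from 82406 to 109830 in the silenced libraries, and the part of either list in the results was not tested. si-NC replicate 3 stood apart from the other libraries. Of the 916 tested entries, 358 were listed at 0 in si-NC replicate 3, against at most 205 in any other library, so the group comparisons below are given with and without it. Many low nonzero values of si-NC replicate 3 fell on steps such as 19, 23, 27 and 31, while values such as 3 and 5 occurred in the other libraries. What these steps say of its depth, and their part in its zeros, was not tested.

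The group means of the family lay close together. All 4 of the 3p arms had a wide spread between the controls, while 3 of the 5p arms had a narrower one and miR-130a-5p did not. No entry of the family passed the test between the groups. By limma on log2(value + 1), 0 of the 8 entries had an adjusted p under 0.05 and 0 of 8 an unadjusted p under 0.05, against 0 (0.0%) and 57 (6.22%) of 916 tested entries. No entry of the family had groups that did not overlap, where 6.77% of tested entries did not overlap with higher values in the silenced libraries and 4.91% with lower values.

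mmu-miR-130b-3p, the most abundant entry of the family and ranked 86 of 1046 by its mean, was at 3384, 3185 and 9193 in control replicates 1, 2 and 3. In silenced replicates 1, 2 and 3 it was at 4865, 3840 and 6040. The silenced libraries therefore lay above si-NC replicates 1 and 2 and below si-NC replicate 3. Its means were 5254 ± 3413 for the controls and 4915 ± 1101 for the silenced libraries (each mean ± SD of n = 3 libraries), a log2 change of 0.06 ± 0.43 (SE, limma adjusted p = 0.992). mmu-miR-130a-3p, whose hairpin has no host gene, was at 2236, 2406 and 9081 in the controls and at 4605, 3308 and 5838 in the silenced libraries. Again si-NC replicate 3 was highest and the other si-NC libraries lowest, so that the means of 4574 ± 3904 and 4584 ± 1265 were almost the same. The log2 change was 0.29 ± 0.53 (adjusted p = 0.968), larger than the ratio of the means because a mean of logs gives less weight to the high library.

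mmu-miR-301a-3p, whose hairpin lies in the Ska2 intron, had the widest range of the 8 entries. It was at 905, 1120 and 5206 in the controls and at 2478, 1526 and 3538 in the silenced libraries. The lowest and the highest library were both controls and were 5.75-fold apart. Its means were 2410 ± 2424 and 2514 ± 1006, with a log2 change of 0.45 ± 0.65 (limma adjusted p = 0.948). mmu-miR-301b-3p, the cluster partner of miR-130b, was at 904, 706 and 2331 in the controls and at 1429, 935 and 1808 in the silenced libraries. Its pattern was like that of the other 3p arms, with means of 1314 ± 887 and 1391 ± 438 and a log2 change of 0.23 ± 0.48 (adjusted p = 0.977).

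Of the 5p arms, the partner strands in the duplex, none had the library order of the 3p arms, though miR-130a-5p was also highest in si-NC replicate 3. miR-130b-5p was at 4153, 4334 and 3516 in the controls and at 3273, 4109 and 3520 in the silenced libraries. Here si-NC replicate 3 was the lowest of its group, and the highest library of all was only 1.32-fold above the lowest. The means were 4001 ± 430 and 3634 ± 430 (log2 change -0.14 ± 0.24, limma adjusted p = 0.962). miR-301a-5p was at 414, 303 and 328 in the controls and at 319, 337 and 404 in the silenced libraries, a spread of 1.37-fold with the groups interleaved (log2 change 0.03 ± 0.32, adjusted p = 0.992).

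miR-301b-5p was at 229, 159 and 216 in the controls and at 210, 151 and 263 in the silenced libraries, where replicate 2 was the lowest library of each group (log2 change 0.03 ± 0.39, limma adjusted p = 0.992). miR-130a-5p, the least abundant entry, was at 68, 38 and 131 in the controls and at 57, 59 and 88 in the silenced libraries. It was the one 5p arm highest in si-NC replicate 3, with a range of 3.45-fold, and its groups overlapped as well (log2 change -0.07 ± 0.61, adjusted p = 0.992).

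**Figure D1:**
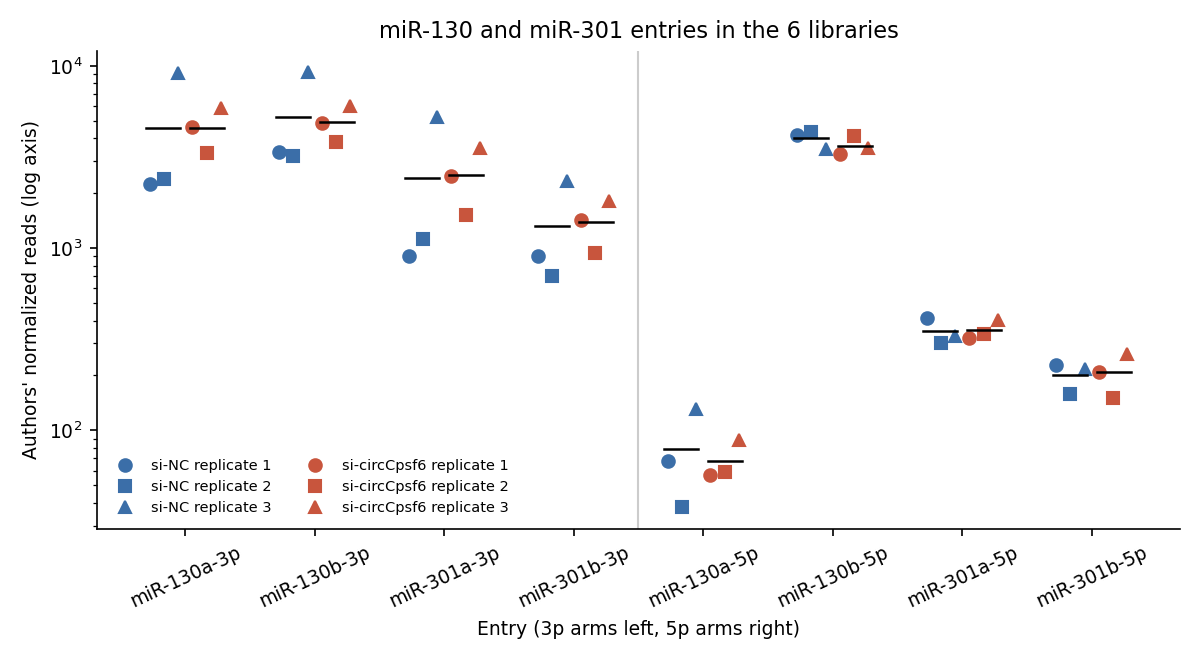
Normalized reads of the 8 family entries on a log axis, 1 point per library (blue for si-NC, red for si-circCpsf6, the shape giving the replicate) with a black line at each group mean. All 4 of the 3p arms have si-NC replicate 3 at the top and si-NC replicates 1 and 2 at the bottom, while miR-130b-5p and miR-301a-5p stay within 1.37-fold.

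The levels of the family fell in the order miR-130b-3p, miR-130a-3p, miR-130b-5p, miR-301a-3p, miR-301b-3p, miR-301a-5p, miR-301b-5p and miR-130a-5p by the mean over all libraries. miR-130b-3p was above miR-130a-3p in 6 of 6 libraries, but by a ratio of only 1.01 in the closest library and 1.51 in the widest. miR-130a-3p and miR-130b-5p did not keep an order, the first being higher in 3 of 6 libraries, and miR-130b-5p was above miR-301a-3p in 4 of 6. The other neighbours kept their order in 6 of 6 libraries, although miR-301a-3p and miR-301b-3p were a normalized read apart in si-NC replicate 1.

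Summed, the family held 0.404%, 0.419% and 1.17% of all normalized reads in control replicates 1, 2 and 3. In silenced replicates 1, 2 and 3 it held 0.600%, 0.436% and 0.746%. Its share was thus highest in a control library and lowest in the other control libraries. The 3p arms alone summed to 7429, 7417 and 25811 in the controls and to 13377, 9609 and 17224 in the silenced libraries. The 2 low controls were nearly equal in this sum, whereas si-NC replicate 3 was 3.48-fold above their mean. The 5p arms summed to 4864, 4834 and 4191 in the controls and to 3859, 4656 and 4275 in the silenced libraries, within 1.26-fold over all 6 libraries. As a share of each library's total, the 5p sum was 0.160% to 0.165% in the controls and 0.134% to 0.148% in the silenced libraries, ranges that did not overlap, whereas the deposited 5p sums did overlap. miR-130b-5p made up 85.9% of the 5p sum and was the one 5p arm whose own shares did not overlap, being lower in the silenced libraries, as were those of 6.33% of tested entries. No test was made of these sums.

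Within a hairpin, the ratio of the 3p to the 5p arm compares 2 products of the same precursor. miR-130a was almost all 3p, with ratios of 32.9, 63.3 and 69.3 in the controls and 80.8, 56.1 and 66.3 in the silenced libraries. For miR-301a the ratio was 2.19, 3.70 and 15.9 in the controls and 7.77, 4.53 and 8.76 in the silenced libraries, and for miR-301b it was 3.95, 4.44 and 10.8 against 6.80, 6.19 and 6.87. The arm of miR-130b with the higher value differed between libraries.

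For miR-130b the ratio was 0.815, 0.735 and 2.61 in the controls and 1.49, 0.935 and 1.72 in the silenced libraries. The 5p arm thus had the higher value in si-NC replicates 1 and 2 and si-circCpsf6 replicate 2, and the 3p arm in the other libraries. By limma over the log2 ratios of 217 hairpins, the changes were 0.35 ± 0.44 for miR-130a, 0.20 ± 0.61 for miR-130b, 0.42 ± 0.80 for miR-301a and 0.20 ± 0.49 for miR-301b (SE, adjusted p = 0.998 for each). si-NC replicate 3 had the highest ratio for 3 of the 4 hairpins, as for 31.3% of all hairpins. None of the 4 passed, with adjustment or without, as against 0 of 217 hairpins (0.0%) with adjustment and 7 (3.23%) without.

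**Figure D2:**
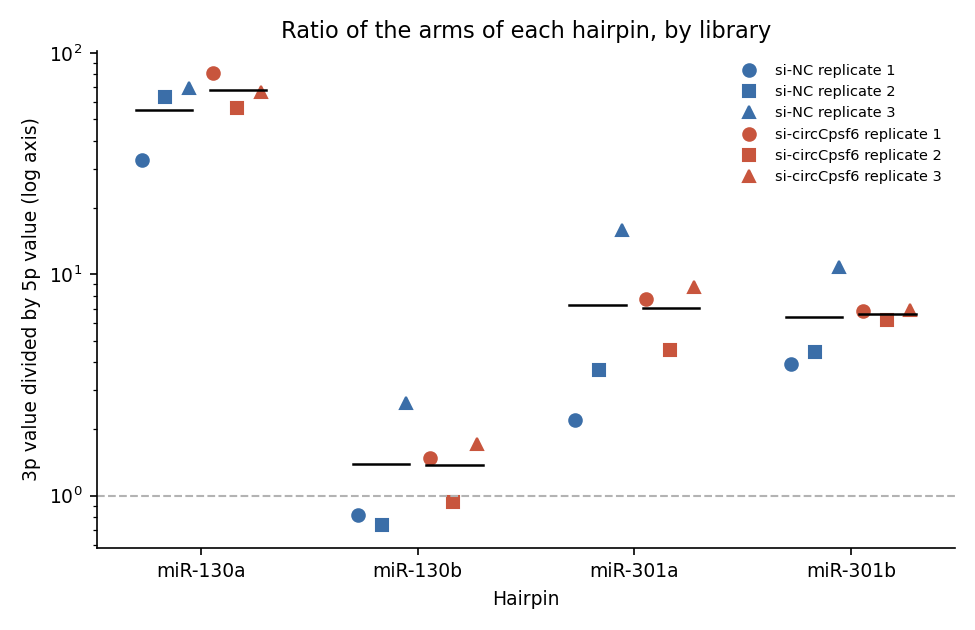
Ratio of the 3p to the 5p value of each hairpin on a log axis, 1 point per library (blue for si-NC, red for si-circCpsf6) with a black line at each group mean and a dashed line where the arms are equal. The miR-130b points lie on both sides of the dashed line, from 0.735 to 2.61, and si-NC replicate 3 is the highest point for miR-130b, miR-301a and miR-301b but not for miR-130a.

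The 3p arms of the family ranked the libraries alike. In all 4 of them si-NC replicate 3 was highest, followed by si-circCpsf6 replicates 3, 1 and 2, with si-NC replicates 1 and 2 lowest. This order was read from the 3p arms themselves, and it held for 27 of 916 tested entries (2.95%) and for 11 of 323 mouse 3p entries (3.41%), the family included. It held for none of the 4 family 5p arms, against 4.32% of mouse 5p entries. si-NC replicate 3 was the highest library for 189 of 916 tested entries (20.6%). Its log2 value exceeded the mean of si-NC replicates 1 and 2 by 1.49 for miR-130b-3p, 1.97 for miR-130a-3p, 2.37 for miR-301a-3p and 1.54 for miR-301b-3p. The median of that difference was 1.76 over the family 3p arms, 0.03 over the family 5p arms, -0.56 over mouse 3p entries and -0.72 over all tested entries. Those backgrounds include low entries. Over tested entries with a mean of 1000 or more, as all family 3p arms had, the median was -0.20.

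**Figure D3:**
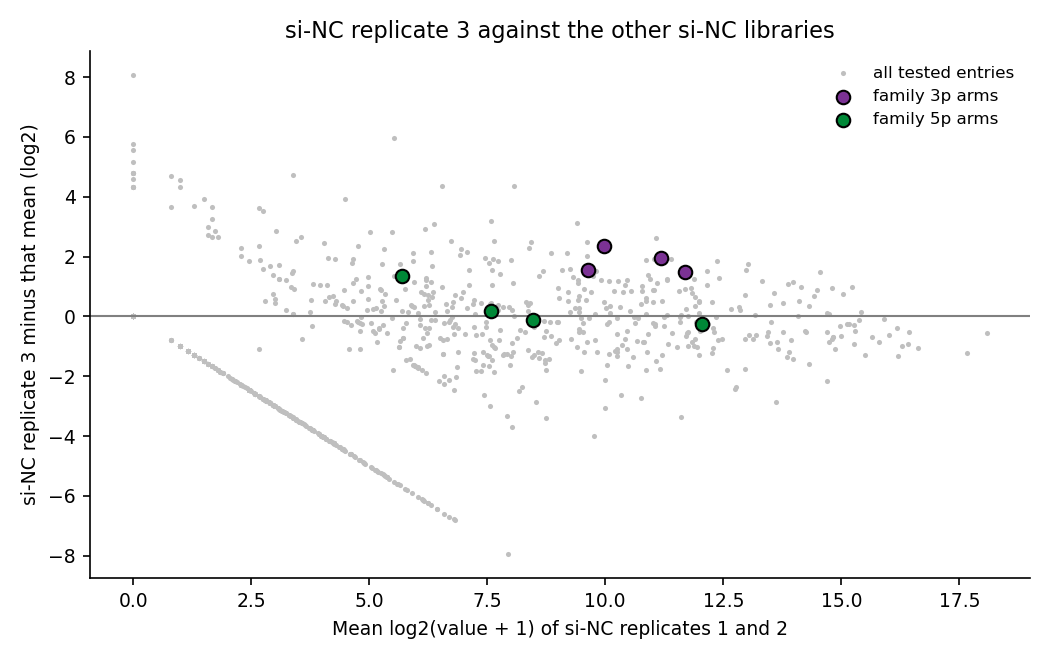
Difference between si-NC replicate 3 and the mean of the other si-NC libraries (log2, vertical axis) against that mean (log2 of value + 1, horizontal axis), 1 point per tested entry. The 4 family 3p arms (purple) lie at 1.49 to 2.37, above most entries of similar level, the family 5p arms (green) at -0.27 to 1.35, and the line of points falling to the lower right holds entries at 0 in si-NC replicate 3.

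Other abundant entries were also high in that library. Of the 201 tested entries with a mean of 1000 or more, 38 (18.9%) were above the other si-NC libraries by more than 1 log2 unit. Base composition moved with the same library. Over 415 mature miRNAs with a RefSeq sequence, the Spearman correlation across miRNAs between GC content and that difference was -0.34, and these points share the same 3 libraries. The 3p arms of miR-301a, miR-130a and miR-130b had a GC content of 39.1%, 40.9% and 45.5%, and the 5p arms of miR-130a and miR-301a had 40.9%, that of miR-130b 45.5% and that of miR-301b 50.0%. Among the 114 mature miRNAs in the GC range of the family 3p arms the median difference was -0.16, and 24 (21.1%) exceeded 1. The part of base composition in the family's values was not tested.

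Without si-NC replicate 3 the family looked different. All 4 of the 3p arms were then higher in each si-circCpsf6 library than in both remaining si-NC libraries, as were 12.8% of tested entries and 14.2% of mouse 3p entries. The ratio of the si-circCpsf6 mean to the mean of si-NC replicates 1 and 2 was 1.50 for miR-130b-3p, 1.97 for miR-130a-3p, 2.48 for miR-301a-3p and 1.73 for miR-301b-3p. The log2 changes were 0.56 ± 0.23, 0.94 ± 0.27, 1.24 ± 0.39 and 0.75 ± 0.33 in the same order (SE, limma). Their adjusted p-values were 0.375, 0.209, 0.262 and 0.394, so none passed over all entries, where 4 of 916 (0.437%) did. The unadjusted p was under 0.05 for miR-130a-3p (0.0194) and miR-301a-3p (0.0272), 2 of the 8 entries, both higher, against 14.4% of tested entries in either direction and 5.46% with a higher value.

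Of the 5p arms, miR-130b-5p was lower in each si-circCpsf6 library than in si-NC replicates 1 and 2, at a ratio of means of 0.856 (log2 change -0.23 ± 0.15, limma adjusted p = 0.458), as were 18.9% of tested entries. The groups of the other 5p arms still overlapped, so no family 5p arm was higher in each silenced library, against 12.3% of mouse 5p entries. The 3p to 5p ratios without that library changed by 0.56 ± 0.40 for miR-130a, 0.79 ± 0.37 for miR-130b, 1.25 ± 0.44 for miR-301a and 0.66 ± 0.27 for miR-301b on the log2 scale (adjusted p = 0.595 for the first and 0.492 for the others). The ratios of miR-130b, miR-301a and miR-301b were higher in each silenced library than in si-NC replicates 1 and 2, as were those of 16.6% of hairpins. With adjustment none of the 4 passed, as against 2 of 217 hairpins (0.922%). The unadjusted p was under 0.05 for miR-301a (0.0375), as for 8.76% of hairpins. The size of the 3p difference between the groups, and for each 3p arm its direction, rested on which controls were kept. With si-NC replicate 1 left out instead, the log2 change was -0.16 for miR-130b-3p, -0.067 for miR-130a-3p and -0.025 for miR-301a-3p, and with si-NC replicate 2 left out it was -0.11 for miR-301b-3p. That of miR-130b-3p was also negative without silenced replicate 3 (-0.098) and after rescaling to equal library totals (-0.021).

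**Figure D4:**
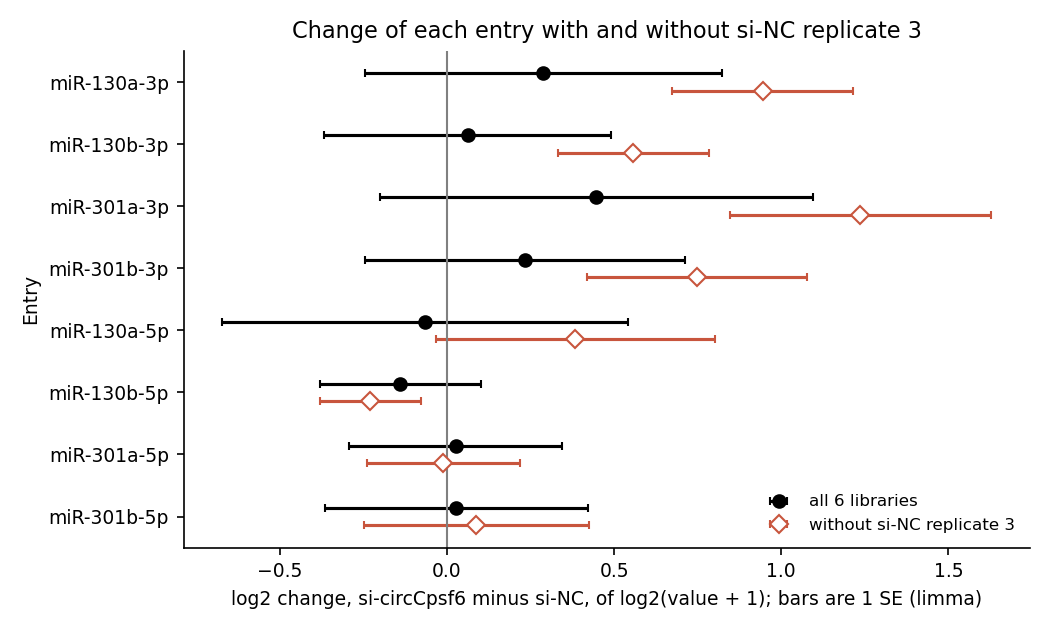
Log2 change of each family entry between si-circCpsf6 and si-NC (horizontal axis, of log2(value + 1), bars of 1 SE by limma), with all 6 libraries (black) and without si-NC replicate 3 (open red). With all libraries every bar crosses 0, and without that library the 4 of the 3p arms stand at 0.56 to 1.24 while the 5p arms stand at -0.23 to 0.38.

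Entries outside the family with the most similar profile were sought among 345 mouse entries with a mean of 100 or more, by Pearson's r with miR-130b-3p on log2(value + 1) over the 6 libraries. The highest were a variant of miR-18a-5p (0.997), miR-29b-3p (0.997), miR-106b-5p (0.995), miR-137-3p (0.993) and miR-297c-5p (0.992). All 5 had the library order of the family 3p arms, for example miR-106b-5p at 8720, 8052 and 28228 in the controls and 13100, 8900 and 17655 in the silenced libraries. In that ranking, which counts every other entry, miR-130a-3p came in place 10 (0.985), miR-301b-3p in place 22 (0.973) and miR-301a-3p in place 25 (0.969). The partner arm miR-130b-5p stood at -0.75 and in place 253. These values describe 6 libraries, of which si-NC replicate 3 is far from the rest.

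Several miRNAs have a seed that overlaps the family's when shifted by a base, and their sequences are shown beside it with their own seed in capitals (RefSeq, GRCm38.p6).
miR-19a-3p: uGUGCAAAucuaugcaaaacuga
miR-19b-3p: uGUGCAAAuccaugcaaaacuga
miR-148b-3p: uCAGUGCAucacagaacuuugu
miR-152-3p: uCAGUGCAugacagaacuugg
The mouse miRNAs miR-130c, miR-6341 and miR-6389 also carry the family's own seed, but they were outside the related list and had no entry. The related list held miR-721, miR-454, miR-19a, miR-19b, miR-148a, miR-148b and miR-152. Its first 2, listed for that same seed, had no mouse-named entry. Of the 9 tested entries of the others, 2 were higher and 7 lower in the silenced libraries and none passed, with a median log2 change of -0.10 over the 5 of 3p arms and -0.30 over the 4 of 5p arms, beside 0.09 over all tested entries. Without si-NC replicate 3, 5 of the 9 were higher and 3 lower and none passed, and the medians were 0.12 and 0.02, beside -0.04 over all tested entries. These counts include miR-148a-3p and a variant of miR-19a-5p, which had means of only 6.83 and 3.17. miR-19b-3p and miR-19a-3p belong to the growth-promoting miR-17-92 cluster. miR-19b-3p (7358, 8983 and 23671 in the controls, 16158, 11126 and 11963 in the silenced libraries) and miR-19a-3p (2235, 3255 and 10103, then 4961, 3236 and 4150) were highest in si-NC replicate 3, like the family 3p arms.

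miR-148b-3p was at 17337, 21894 and 13535 in the controls and 12344, 18671 and 12997 in the silenced libraries. Its value in si-NC replicate 3 was the lowest of the controls but not of all libraries. miR-152-3p was lowest in si-NC replicate 3, at 10212, 7914 and 5384 in the controls and 8805, 5509 and 7299 in the silenced libraries. These miRNAs, whose seeds overlap that of the family, thus differed in how they stood in si-NC replicate 3. The part of the seed was not tested. The log2 changes with all libraries were 0.15 ± 0.44 for miR-19b-3p, -0.05 ± 0.52 for miR-19a-3p, -0.26 ± 0.29 for miR-148b-3p and -0.10 ± 0.32 for miR-152-3p (SE, limma adjusted p = 0.992, 0.992, 0.912 and 0.992). Without si-NC replicate 3 they were 0.67 ± 0.22, 0.59 ± 0.27, -0.43 ± 0.25 and -0.35 ± 0.26 in the same order (adjusted p = 0.292, 0.395, 0.447 and 0.501). miR-148a-3p was at 0 to 23 normalized reads, with 0 in a library of each group.

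The tables also listed 4 entries named after miR-130b of other species, which were not counted as members. The largest, a variant of pig miR-130b-3p, was at 62, 59 and 135 in the controls and at 97, 54 and 123 in the silenced libraries, again highest in si-NC replicate 3. The sum of their means was 116 normalized reads, or 0.646% of that of the family.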

How the data were processed

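Small RNA libraries from N2A cells were compared, 3 given si-NC and 3 given si-circCpsf6, grouped by their titles. No label says that replicates were separate cultures, so p-values reflect library spread that may be technical. Per the file headers, the deposited values are normalized reads, rounded to whole numbers and treated here as a score, not as counts, so the depth is unknown. Per the submitters' processing notes the build was mm9. For aligner, read assignment and normalization, the method is not given in the sources used here.

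Rows repeating the values of an earlier row were merged (34) if above 0 in at least 3 libraries or of the same name without the variant suffix. This left 1046 of 1080 entries, among which some low rows of different names still repeat each other's values. Those averaging at least 1 (916) were tested with limma 3.58.1 (trended variance, R 4.3.3) on log2(value + 1), with Benjamini-Hochberg adjustment over all of them at 0.05. The 3p to 5p ratio was tested with limma over 217 hairpins. The steps were tested on simulated data with larger changes and a smaller spread than the family 3p arms had, and with no divergent library. That test therefore does not show what could be detected here. Python 3.11.15, pandas 2.3.3 and matplotlib 3.10.9 did the rest. All 8 family entries are named, and likeness names 5 entries by Pearson's r. The count test in the plan did not apply. Members, lists and tests were chosen with earlier results of these data known. Alternatives were other pseudocounts, filters and scalings, each library left out, a block on the replicate number, robust variance, copies kept, mouse-named entries alone, summed variants and, added after seeing the data, removal of a GC trend. The GC set was limited, after its coverage was seen, to annotated mature names averaging at least 10, of which 415 of 502 (82.7%) had a sequence.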

Additional observations from a re-analysis of the deposited data

How the results depend on the processing

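No family entry and no family arm ratio passed the limma threshold under any of 187 combinations of result and alternative (lowest adjusted p 0.209, for miR-130a-3p without si-NC replicate 3), but the direction turned in 24. The number of entries called over the whole table was 0 with all libraries and 0 to 4 with 1 library left out, the 4 without si-NC replicate 3 and none of them a family member. With 1 library left out, the log2 change ran from -0.21 to 0.56 for miR-130b-3p, -0.067 to 0.94 for miR-130a-3p, -0.025 to 1.24 for miR-301a-3p, -0.11 to 0.75 for miR-301b-3p, -0.074 to 0.16 for miR-301a-5p, -0.16 to 0.24 for miR-301b-5p, -0.50 to 0.38 for miR-130a-5p and -0.23 to -0.07 for miR-130b-5p. The upper value of each 3p arm was that without si-NC replicate 3. The log2 arm ratio change ran from 0.02 to 0.56 for miR-130a, -0.13 to 0.79 for miR-130b, -0.18 to 1.25 for miR-301a and -0.065 to 0.66 for miR-301b. Rescaled to equal totals, miR-130b-3p (-0.021), miR-301a-5p (-0.057) and miR-301b-5p (-0.055) turned negative, and with the GC trend removed miR-301b-5p stood at -0.0028 and miR-130a-5p at 0.051. The share of the family differed by -0.07 percentage points, and by -0.20 to 0.18 with 1 library left out. Whether the replicate numbers pair the samples was not settled. The correlation of same-numbered deviations was 0.05, 0.48 and 0.40 for replicates 1, 2 and 3. For replicates 2 and 3 it was the highest with any library of the other group, while si-NC replicate 1 was closest to si-circCpsf6 replicate 2 (0.18). With the replicate block 0 entries were called and 87 had an unadjusted p under 0.05, against 57. A block cannot move a change in this balanced design, so miR-130b-3p stood at 0.06 as without it. Its SE was 0.27 with the block against 0.43, and the SE of each family entry was lower with the block. Causes were not tested. The depth is unknown, and the smallest change that could be seen was not measured.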
